A study of Mus musculus with 5 samples.

Results

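The genes described here are the receptors and ligands of lymphocyte costimulation: *Icos*, *Icosl*, *Cd28*, *Tnfrsf4*, *Tnfsf4*, *Tnfrsf9*, *Tnfrsf18*, *Tnfrsf25* and *Cd40lg*. They were chosen by symbol, with earlier results of these data known. All 9 were found among the 27726 genes common to the 5 single-cell libraries. There are 6 receptors and 3 ligands among them. Type 2 innate lymphoid cells (ILC2s) were taken from the lungs of female wild-type C57BL/6 mice aged 4 to 8 weeks, as Lin- ST2+ CD127+ Thy1.2+ CD45+ cells, and RNA was counted with the 10x Genomics 3' chemistry in cells pooled from 5 mice per library. The naive group was 1 library from mice without tumour. The ta-non-activated group was 2 libraries of freshly sorted cells from mice that carried a TC1 tumour under the skin of the right flank, taken at week 2 and at week 3. The ta-activated group was 2 libraries of such tumour-associated cells from weeks 2 and 3, cultured afterwards for 7 days with TSLP, rmIL-33 and rhIL-2 at 10 ng/mL each. Below, fresh stands for ta-non-activated and cultured for ta-activated, and paired values of a group are given for week 2 first. Tumour and culture therefore both separate the naive from the ta-activated cells, and no naive cells were cultured.

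Costimulatory receptors add to the signal of the antigen receptor in T cells, and ILC2s carry many of them without having an antigen receptor. CD28 and ICOS are related receptors of the immunoglobulin superfamily. CD28 binds CD80 and CD86, ICOS binds ICOS ligand, and ILC2s are known to carry both ICOS and its ligand. OX40 (*Tnfrsf4*), 4-1BB (*Tnfrsf9*), GITR (*Tnfrsf18*) and DR3 (*Tnfrsf25*) belong to the tumour necrosis factor receptor superfamily and signal through TRAF adaptors towards NF-kappaB. OX40 ligand (*Tnfsf4*) on lung ILC2s is known to act on T helper and regulatory T cells, and CD40 ligand (*Cd40lg*) is carried mainly by activated helper T cells.

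A short coding sequence of CD28 and ICOS is shown because it is the docking site of phosphoinositide 3-kinase. Both lines give 60 bases of coding sequence on GRCm38, read 5' to 3' on the plus strand. They are from the annotated transcript of each gene with the longest coding part. The capitals mark the codons of the tyrosine-methionine-any-methionine motif.
*Cd28*, chr1:60769669-60769728: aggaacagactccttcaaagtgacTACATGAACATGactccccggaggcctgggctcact
*Icos*, chr1:60995536-60995595: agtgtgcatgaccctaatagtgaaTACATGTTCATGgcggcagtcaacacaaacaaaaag
In these transcripts the motif starts at residue 189 of 218 for CD28 and at residue 181 of 223 for ICOS, and the lengths hold for these transcripts only. *Cd28* (chr1:60716800-60773359) and *Icos* (chr1:60977927-61000320) lie 204567 bases apart on chromosome 1, with *Ctla4* as the only other coding gene between them. *Tnfrsf18* (chr4:156026164-156028895) and *Tnfrsf4* (chr4:156013843-156016612) lie 9551 bases apart on chromosome 4 with no coding gene between, and *Tnfrsf9* and *Tnfrsf25* are on the same chromosome. Every member is on the plus strand. *Icos* shares part of its position with the unconfirmed same-strand transcript *Gm37039*, whose reads could be split from those of *Icos* in the authors' counting.

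The set of RefSeq promoters used here (250 bases before to 50 after a start, build GRCm38.p6) had entries for 5 of the 9 members, in 7 records. A record of *Tnfrsf9* is printed because *Tnfrsf9* had the largest log2 difference above 0 between cultured and fresh cells of the members. The record shown is that at its second recorded start, the one that holds motif matches.
*Tnfrsf9*, chr4:150927749-150928048, plus strand: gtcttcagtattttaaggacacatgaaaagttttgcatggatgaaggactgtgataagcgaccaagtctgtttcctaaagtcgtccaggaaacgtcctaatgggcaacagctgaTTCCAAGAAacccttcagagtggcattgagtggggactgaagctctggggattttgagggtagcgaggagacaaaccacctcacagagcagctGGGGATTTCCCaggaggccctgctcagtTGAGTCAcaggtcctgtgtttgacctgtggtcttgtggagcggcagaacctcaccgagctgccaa
Its capitals mark, counted from 1 at the 5' end, a STAT motif (TTC and GAA around any 3 bases) at base 115, 2 overlapping kappaB motifs at bases 208 and 209, and an AP-1 motif (TGANTCA) at base 236. No GATA motif (AGATAA) was found in it, both strands being searched for each motif. Of all 32851 promoters of the same length, 4.51% hold a kappaB motif, 7.81% an AP-1 motif, 8.30% a STAT motif and 11.2% a GATA motif. Of the other 6 records, that of *Tnfrsf18* and 1 of the 2 of *Tnfrsf25* hold a STAT motif, and none holds a kappaB, AP-1 or GATA motif. The record of *Tnfrsf9* at its first start (chr4:150919905-150920204) thus holds none of the motifs. Which start these cells used was not tested. A match of letters is not evidence of binding.

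Between 1601 and 6389 cells per library were kept (at least 200 genes detected, mitochondrial share of UMIs under 5%), with 9394957 to 61830293 UMIs per library and a median of 4396 to 16090 UMIs per cell. A UMI is 1 counted RNA molecule, and levels are given as counts per 1000000 UMIs of the cells concerned (CPM). The libraries shared 1 to 11 cell barcodes in each of 10 pairs, and doublets were not removed. The week 3 ta-non-activated library stood apart: 850 of its 1601 cells (53.1%) had at least 2 UMIs of the T cell genes *Cd3d* and *Cd3e*, against 1.10% to 7.45% in the others, and early thymocyte genes (*Rag1*, *Rag2*, *Dntt*, *Ptcra*, *Cd8b1*) summed to 1167 CPM there, with all 5 detected, against 0.211 to 1.17 CPM elsewhere. Near that limit, 49 cells of the library had exactly 1 such UMI and 42 exactly 2. Each level is therefore given for all cells and for an ILC2 gate, cells with a UMI of *Gata3* or *Il1rl1* that were in none of the classes set by 2 UMIs of *Cd3d* and *Cd3e*, 2 of NK genes, 2 of type 17 genes or 3 of endothelial genes. The gate held 5509 naive cells, 1747 and 599 ta-non-activated cells (week 2, then week 3) and 2619 and 3699 ta-activated cells, and the 8 ILC2 genes (among them *Gata3*, *Il1rl1* and *Areg*) were detected in each. Within the gate of the week 3 ta-non-activated library, early thymocyte genes still summed to 142 CPM, against 1488 CPM in its Cd3-positive cells, and the part of this RNA in its gated levels was not tested.

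With culture, the costimulatory receptors were mostly higher and the ligands were not. Within the ILC2 gate, *Icos*, *Cd28*, *Tnfrsf4*, *Tnfrsf9* and *Tnfrsf18* lay above both ta-non-activated libraries in both ta-activated libraries, *Tnfrsf25* did not, and of the ligands *Cd40lg* lay below. The 5 members above compare with 32.6% of 12440 genes whose groups were apart in that direction, and the 1 member below with 13.5%. Over all cells, 4 members (*Icos*, *Tnfrsf4*, *Tnfrsf9* and *Tnfrsf18*) lay above, with a background of 32.4% of 12643 genes, and *Cd40lg* lay below, with a background of 20.6%. By edgeR's quasi-likelihood test on summed counts, 2 libraries against 2, no member had an adjusted p under 0.05, nor had any gene in all cells (0% of 12643) or in the gate (0% of 12440). At an unadjusted p under 0.05 the same test gave 2120 genes over all cells (1178 higher, 942 lower) and 1554 in the gate, and DESeq2 called 1041 (8.23%) and 523 (4.2%), with 4 members among the former and 1 among the latter. These p-values measure the spread between libraries of pooled mice taken in different weeks, and an exact permutation test of 2 against 2 cannot go below p = 0.333. Without the week 2 fresh library edgeR called 1646 genes over all cells (12.1% of 13604), among them 5 members (*Icos*, *Tnfrsf4*, *Tnfrsf9*, *Tnfrsf18* and *Cd40lg*), and the fresh group was then the mostly Cd3-positive library alone, assumed to vary like the cultured ones. The same omission in the gate called 115 genes (0.875% of 13140) and no member, and leaving out the week 3 fresh library instead called 513 genes over all cells (3.85% of 13327) and no member. In such sums, fewer cells of a type and less RNA per cell cannot be told apart.

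**Figure D1:**
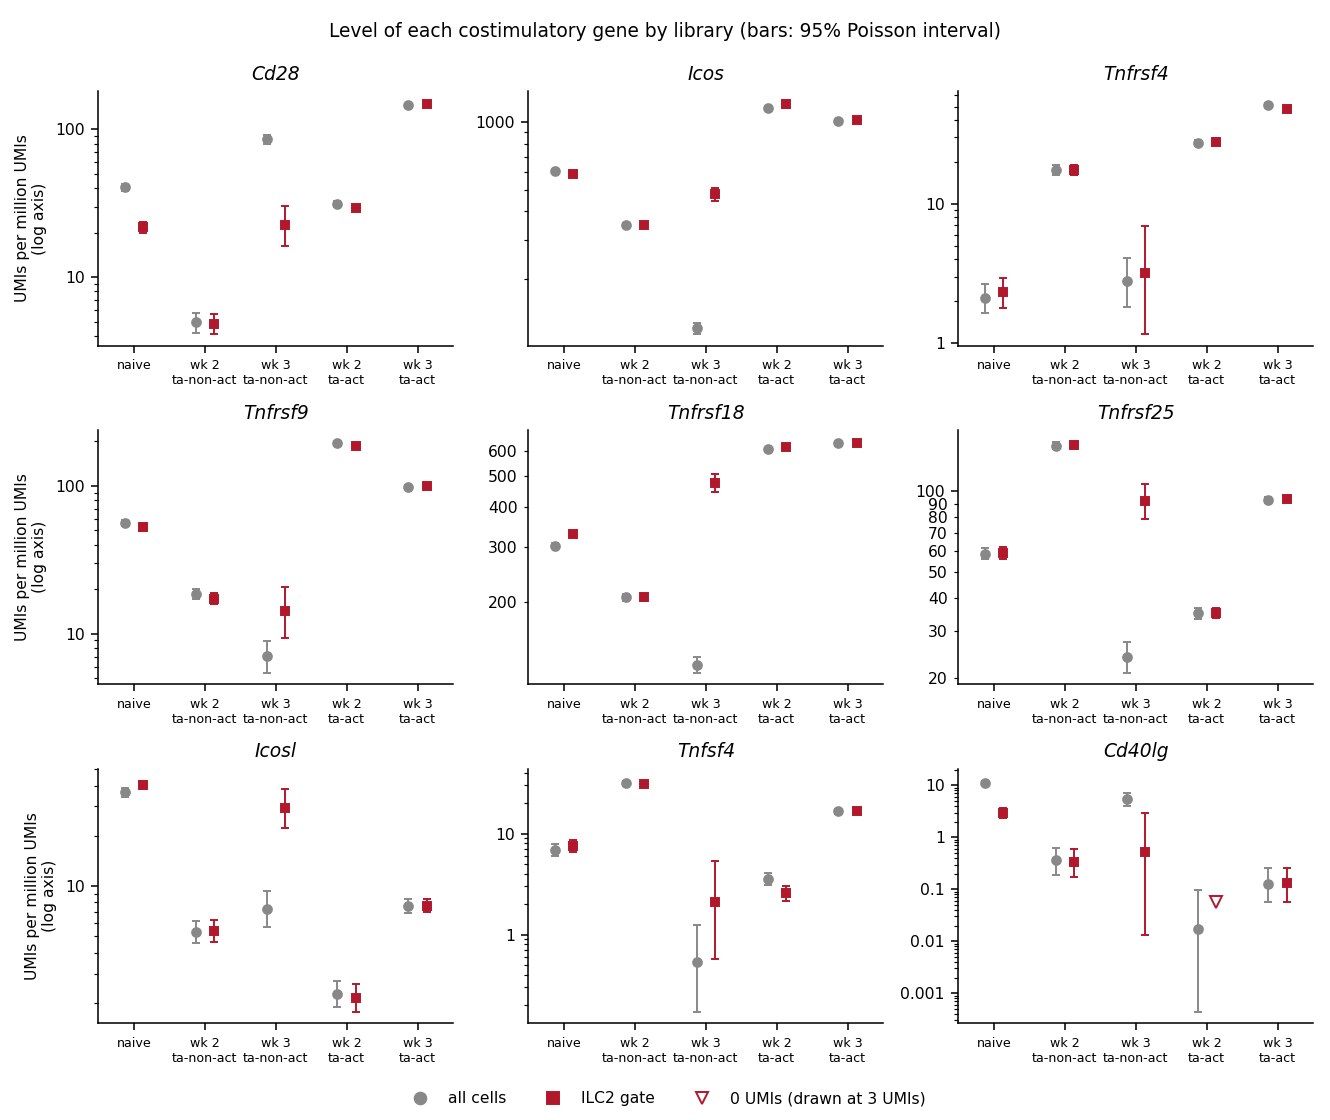
Level of each member in CPM (log axis, scaled per panel) in the 5 libraries, over all cells (grey circles) and in the ILC2 gate (red squares), with 95% Poisson intervals that cover counting error only. The open triangle stands for 0 UMIs and is drawn at 3 UMIs. All-cell and gated values part most in the week 3 ta-non-activated library, where *Icos* was 121 against 476 CPM.

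*Icos*, the receptor through which ILC2s receive survival signals from ICOS ligand, was found in 46.4% to 98.0% of the gated cells of a library. Its level in the gate was 583 CPM for naive, 349 and 476 CPM for fresh and 1202 and 1020.2 CPM for cultured cells. Both cultured libraries lay above the other 3, with a mean of 1111 ± 128 CPM (SD, n = 2) against 413 ± 90.0 CPM (SD, n = 2) in ta-non-activated cells. The fold of culture over fresh was 3.44 in week 2 (95% counting interval 3.37 to 3.51) and 2.14 in week 3 (2.01 to 2.29). In edgeR's fit the log2 difference was 1.27 (SE 0.39, adjusted p = 0.35), and over all cells, where the fresh week 3 library stood at 121 CPM, it was 2.03 (SE 0.68, adjusted p = 0.27). Over all cells DESeq2 gave 2.02 with an adjusted p of 0.0464, so the call depended on the tool.

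The share of cells with *Icos* moved in the same way once each cell was thinned to 2000 UMIs, which removes the difference in depth. In the gate, 47.3% (95% Clopper-Pearson interval 46.0 to 48.7) of naive cells had a UMI, 40.3% and 40.8% of ta-non-activated cells, and 86.1% and 81.1% of ta-activated cells. Without thinning the shares were 64.0%, 80.8%, 46.4%, 98.0% and 96.5% in the same order, so the high unthinned share of the week 2 ta-non-activated library followed its depth. For comparison, of 38 naive cells with at least 3 UMIs of endothelial genes, 23.7% (11.4 to 40.2) had a UMI of *Icos* at the same thinning, with a median depth of 4484 UMIs before thinning against 4487 in the gate. These cells are no clean background, since the 8 ILC2 genes summed to 4452 CPM in the 44 of them before thinning, against 8123 CPM in the gate, and the part of free RNA and of doublets in their shares was not tested. The other 4 libraries held fewer than 20 such cells each and gave no such share. Cells with 5 or more UMIs of *Icos* among 2000 made up 20.4% and 12.2% of cultured gated cells, and 1.61% to 4.80% in the other 3 libraries.

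*Cd28*, the receptor of CD80 and CD86, was lower in week 2 than in week 3 in both groups. In the gate it stood at 21.7 CPM in naive cells, at 4.85 and 22.6 CPM in ta-non-activated cells and at 29.3 and 148 CPM in ta-activated cells. The groups did not overlap in the gate, and the folds of culture over fresh were near each other in both weeks, 6.05 (5.13 to 7.18) in week 2 and 6.54 (4.85 to 9.04) in week 3. The log2 difference was 2.60 (SE 1.07, adjusted p = 0.41, edgeR). Over all cells the groups overlapped, because the fresh week 3 library stood at 86.0 CPM and the cultured week 2 library at 31.3 CPM, and the log2 difference was 0.97 (SE 1.35, adjusted p = 0.73, edgeR). Leaving out the week 3 ta-activated library turned it to -0.46.

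The week 3 culture differed from the week 2 culture for *Cd28* more than for the other 5 receptors. Its gated level was 5.04-fold that of week 2 (4.77 to 5.32), and 24.7% of its thinned gated cells had a UMI against 4.64%. In the gates of the other 3 libraries the thinned share was 3.02% in naive cells, 0.746% in week 2 and 2.43% in week 3, and the naive endothelial-gene cells gave 2.63% (0.0666 to 13.8), which is 1 of 38 cells. *Cd28* is among the genes with the longest introns (50438 intron bases). Tertiles of intron length were set over 5592 genes above a limit of mean gated level over the 5 libraries, naive included. Median log2 differences of the longest tertile, naive minus another library, were 1.40 and 1.02 for fresh and 1.07 and 0.86 for cultured cells. In the same order the shortest tertile gave -0.83, -0.42, -0.67 and -0.66. Naive and fresh cells were also counted with different Cell Ranger versions. What either adds to the naive *Cd28* level was not tested.

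*Tnfrsf4* (OX40), a receptor induced on activated lymphocytes, was lowest in naive cells. In the gate its level was 2.31 CPM for naive, 17.6 and 3.16 CPM for fresh and 27.9 and 47.6 CPM for cultured cells. The naive value lay below those of the other 4 libraries, as was so for 20.8% of the 13787 genes compared, but the interval of the week 3 ta-non-activated library (1.16 to 6.87 CPM, 6 UMIs) covers it. By intron length *Tnfrsf4* falls in the shortest tertile, but its mean level was below the limit of the genes so compared. The median log2 difference of that tertile, naive minus another library, was -0.83 to -0.42. The part of this in the naive level of *Tnfrsf4* was not tested. The fold of culture over fresh was 1.58 (1.44 to 1.75) in week 2 and 15.1 (6.93 to 41.2) in week 3. The log2 difference was 1.55 (SE 0.82, adjusted p = 0.50) in the gate and 1.73 (SE 0.98, adjusted p = 0.42) over all cells by edgeR. Leaving out the week 2 fresh library gave 3.88 over all cells (adjusted p = 0.0361, edgeR) and 3.47 in the gate (adjusted p = 0.0675), and leaving out the week 3 fresh library gave 0.92 over all cells (adjusted p = 0.23).

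OX40 RNA was found in a minority of cells. Of thinned gated cells, 0.413% of naive, 2.52% and 0.749% of fresh and 3.09% and 4.12% of cultured cells had a UMI, while 0 of 38 naive endothelial-gene cells had one, which allows up to 7.89%. Without thinning the gated shares were 0.889% in naive, 10.5% and 0.835% in fresh and 10.7% and 13.1% in cultured cells. In the week 3 culture, gated cells with at least 2000 UMIs that had any *Tnfrsf4* had 5.94 UMIs each on average, and the 10% of cells with the most of it held 95.8% of its UMIs. Only 485 of the 3637 cells had one, so this share would be high however the UMIs were spread over those cells. The 50 Cd3-positive cells of that library stood at 250.0 CPM (222 to 281), 279 of the 3163 UMIs of *Tnfrsf4* in the library. The level without them, in the gate, was 47.6 CPM against 51.2 CPM over all cells.

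*Tnfrsf9* (4-1BB), an inducible receptor of T and NK cells, had the largest log2 difference above 0 with culture. In the gate it was at 52.4 CPM in naive cells, at 17.3 and 14.2 CPM in ta-non-activated cells and at 186 and 99.2 CPM in ta-activated cells. Naive cells lay between the groups, 3.04-fold (2.75 to 3.36) above the week 2 and 3.69-fold (2.53 to 5.62) above the week 3 ta-non-activated cells. The naive library was counted with another Cell Ranger version, and the part of this in these folds was not tested. Culture over fresh was 10.8-fold (9.89 to 11.8) in week 2 and 6.99-fold (4.80 to 10.6) in week 3. By edgeR the log2 difference was 3.0 (SE 0.54, adjusted p = 0.25) in the gate and 3.35 (SE 0.76, adjusted p = 0.24) over all cells. DESeq2 gave 2.99 and 3.35, with adjusted p of 0.000111 and 0.000433.

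The higher level of *Tnfrsf9* lay in a minority of cells. Thinned gated shares were 7.28% in naive cells, 3.1% and 1.87% in ta-non-activated cells and 13.6% and 10.2% in ta-activated cells, against 5.26% (0.644 to 17.7) of the naive endothelial-gene cells. Without thinning the cultured shares were 28.6% and 24.5%. In the week 2 culture the cells with any *Tnfrsf9* had 13.1 UMIs each, and the 10% of cells with the most of it held 86.1% of its UMIs, against 38.2% for *Tnfrsf18* and 29.4% for *Icos* in the same cells. In naive cells the same top 10% held 85.2% of *Tnfrsf9*, at 1.93 UMIs per cell with a UMI. The least that this share can be grows as fewer cells have a UMI. Of the naive cells 747 of 5330 had one, against 745 of 2588 in the week 2 culture. The gene overlaps *Camta1* on the opposite strand, and how strand was used in the counting is not given in the sources used here.

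*Tnfrsf18* (GITR), a receptor that ILC2s and regulatory T cells carry at rest, was detected widely. Its gated level was 329 CPM in naive cells, 208 and 475 CPM in ta-non-activated cells and 618 and 637 CPM in ta-activated cells. The cultured libraries differed by little, with a mean of 627 ± 13.4 CPM (SD, n = 2), and the fresh ones by much, with a mean of 341 ± 189 CPM (SD, n = 2). Culture over fresh was 2.98-fold (2.90 to 3.06) in week 2 and 1.34-fold (1.25 to 1.43) in week 3. The log2 difference was 0.73 (SE 0.50, adjusted p = 0.59) in the gate by edgeR and 1.76 (SE 0.46, adjusted p = 0.25) over all cells, where the fresh week 3 library stood at 127 CPM. DESeq2 over all cells gave 1.74 with an adjusted p of 0.0175, and in the gate 0.71 with an adjusted p of 0.72. Thinned gated shares were 44.2%, 31.8%, 56.7%, 61.6% and 61.0% in the order naive, ta-non-activated weeks 2 and 3, ta-activated weeks 2 and 3, and the naive endothelial-gene cells gave 26.3% (13.4 to 43.1).

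*Tnfrsf25* (DR3), the receptor of TL1A, was the receptor not higher in both cultured libraries. In the gate it was at 58.9 CPM in naive cells, at 149 and 92.0 CPM in ta-non-activated cells and at 35.1 and 93.8 CPM in ta-activated cells. The highest and the lowest of these values were both from week 2, where culture over fresh was 0.236 (0.223 to 0.249), while in week 3 it was 1.02 (0.877 to 1.19). The groups overlapped, and the log2 difference was -1.11 (SE 0.62, adjusted p = 0.52, edgeR). Over all cells the week 3 ratio was 3.89 (3.40 to 4.46). Cd3-positive cells of the fresh week 3 library stood at 2.13 CPM, and their part in that ratio was not tested. The share of thinned gated cells was 11.4% in naive cells, 25.8% and 16.3% in ta-non-activated cells and 7.50% and 19.0% in ta-activated cells, with 2.63% in the naive endothelial-gene cells.

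**Figure D2:**
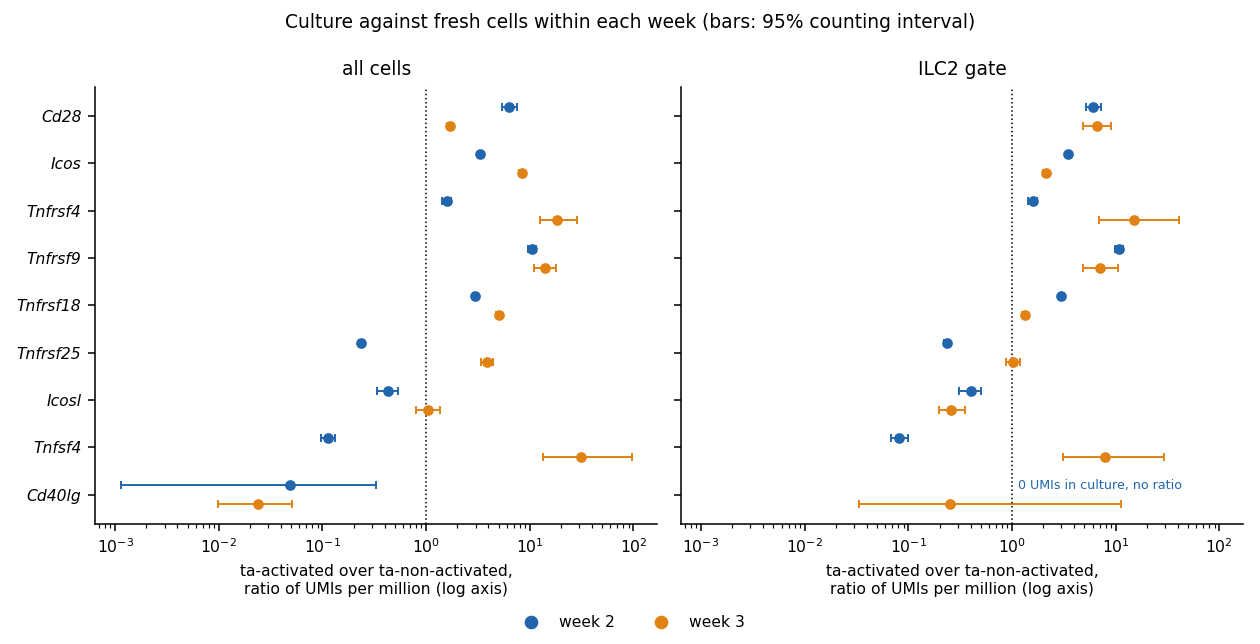
Ratio of the ta-activated to the ta-non-activated level (CPM, log axis) within week 2 (blue) and week 3 (orange), over all cells and in the ILC2 gate, with 95% counting intervals from 1 library on each side. In the gate *Cd28*, *Icos*, *Tnfrsf4*, *Tnfrsf9* and *Tnfrsf18* lie right of 1 in both weeks, while *Tnfsf4* lies at 0.0822 in week 2 and 7.91 in week 3.

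*Icosl*, the ligand of ICOS, was highest in naive cells. In the gate it was at 40.3 CPM (38.0 to 42.8) in naive, at 5.40 and 29.5 CPM in fresh and at 2.15 and 7.65 CPM in cultured cells. The naive level exceeded that of the other 4 libraries, as did *Cd40lg*, so 2 members of 9 did, against 34.5% of the 13787 genes compared. Naive over the week 3 ta-non-activated cells was only 1.37-fold (1.05 to 1.83), and over the week 2 ta-non-activated cells it was 7.47-fold (6.36 to 8.81). The naive library was counted with another Cell Ranger version than the other 4. By intron length *Icosl* falls in the middle tertile, but its mean level was below the limit of the genes so compared. The median log2 difference of that tertile, naive minus ta-non-activated, was -0.30 for week 2 and -0.05 for week 3. What the counting adds to the naive *Icosl* level was not tested.

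Within both weeks *Icosl* was lower after culture in the gate, 0.398 of the fresh level in week 2 (0.312 to 0.508) and 0.260 in week 3 (0.197 to 0.349). Across weeks the groups overlapped, since week 2 fresh cells lay below week 3 cultured cells, and the log2 difference was -1.92 (SE 0.99, adjusted p = 0.49, edgeR). Over all cells it was -0.46 (SE 0.66, adjusted p = 0.74, edgeR), and it turned to 0.20 without the week 2 ta-activated library. Thinned gated shares were 7.65% (6.95 to 8.40), 1.20%, 6.74%, 0.309% and 1.51% in the library order above, and the naive endothelial-gene cells gave 5.26% (0.644 to 17.7), an interval that covers the naive gated share.

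*Tnfsf4* (OX40 ligand) differed with culture in opposite directions in the 2 weeks. Its gated level was 7.59 CPM in naive cells, 31.1 and 2.10 CPM in ta-non-activated cells and 2.55 and 16.6 CPM in ta-activated cells. Culture over fresh was 0.0822 (0.0681 to 0.0985) in week 2 and 7.91 (3.08 to 29.1) in week 3, where the fresh gate held 4 UMIs. The log2 difference of -1.11 (SE 1.31, adjusted p = 0.76, edgeR) therefore averaged values of opposite sign, and it turned to 2.06 without the week 2 ta-non-activated library. In that library 30.5% of gated cells had a UMI without thinning and 7.06% (5.90 to 8.36) with it, the highest share of the 5. The other thinned shares were 1.05% in naive cells, 0.375% in week 3 ta-non-activated cells and 0.116% and 1.90% in ta-activated cells, while 0 of 38 naive endothelial-gene cells had one, which allows up to 7.89%.

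*Cd40lg* RNA was scarce in the ILC2 gate. The gate held 83 UMIs in naive (3.0 CPM), 11 and 1 in fresh and 0 and 8 in cultured cells. In naive gated cells these UMIs lay in 23 of 5509 cells, at 3.64 UMIs per cell among those with at least 2000 UMIs. Culture over fresh could not be given in week 2 of the gate, where the fresh level was at least 5.94-fold higher against a floor of 3 UMIs in the cultured library, and it was 0.251 in week 3 with an interval from 0.0337 to 11.2. Over all cells the log2 difference was -5.19 (SE 1.66, adjusted p = 0.26, edgeR), resting on 12, 51, 1 and 8 UMIs in the 4 tumour libraries, and DESeq2 gave -5.33 with an adjusted p of 0.00934. In the gate it was -2.64 (SE 1.51, adjusted p = 0.53, edgeR), a value that depends on the prior count because 1 library is at 0.

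Of the members, *Cd28* and *Cd40lg* stood furthest above the gate in the Cd3-positive cells and the cells with NK genes of the naive library. The 8 ILC2 genes summed to 4843 CPM in the former and 4182 CPM in the latter, against 8123 CPM in the gate. What these cells are was not tested. In the naive library *Cd28* stood at 146 CPM (132 to 161) in 476 Cd3-positive cells, 6.72-fold the gate, and at 393 CPM (351 to 438) in 124 cells with NK genes (*Tbx21*, *Eomes*, *Ncr1*, *Klrb1c*). *Cd40lg* stood at 96.8 CPM (85.7 to 109) in the naive Cd3-positive cells, against 3.0 CPM in the gate. In the week 3 ta-non-activated library, 50 of its 51 *Cd40lg* UMIs lay in the Cd3-positive cells.

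The Cd3-positive cells of the naive library and of the week 3 ta-non-activated library were unlike each other. *Icos* was at 754 CPM in the former and at 22.4 CPM in the latter, *Tnfrsf18* at 120.5 and 24.3 CPM, and *Tnfrsf25* at 61.8 and 2.13 CPM. *Tnfsf4* had 5 UMIs in the former and 0 in the latter. *Cd28* was at 146 and 106 CPM. These values move with the early thymocyte genes, which summed to 4.59 CPM in the naive Cd3-positive cells and to 1488 CPM in those of week 3, and their part in the difference was not tested.

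**Figure D3:**
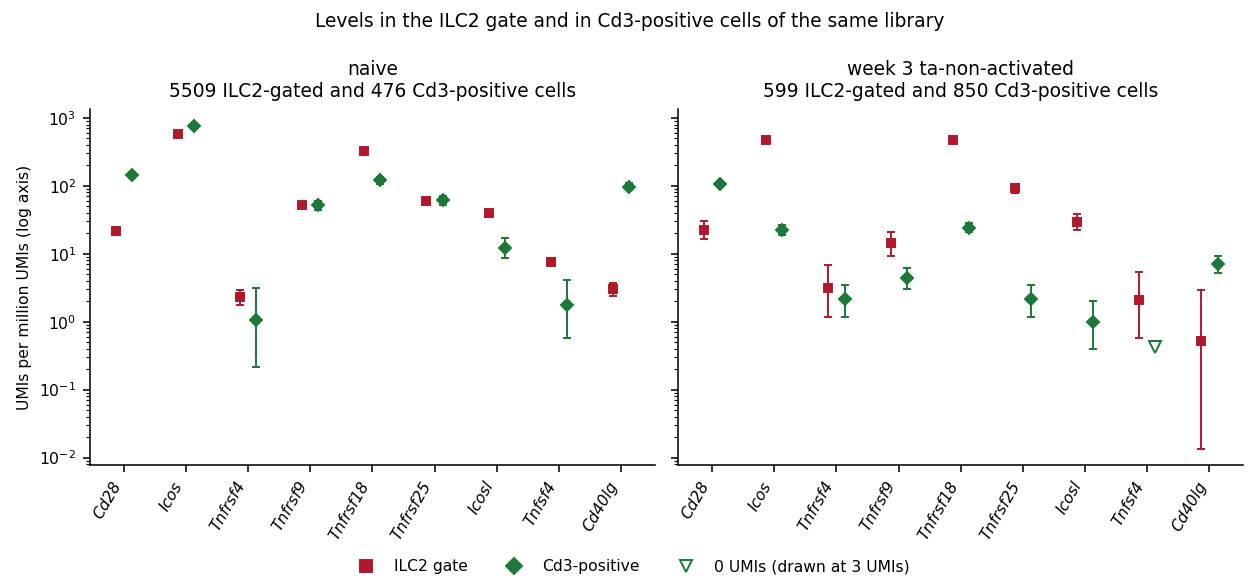
Level of each member (CPM, log axis) in ILC2-gated cells (red squares) and in Cd3-positive cells (green diamonds) of the naive and the week 3 ta-non-activated library, with 95% Poisson intervals. *Cd28* and *Cd40lg* are higher in Cd3-positive cells of both libraries, and *Icos* is at 22.4 CPM in those of week 3 against 476 CPM in the gate. Symbols should be compared within a gene.

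More of the 6 receptors were detected in 1 cell after culture. Among thinned gated cells, 24.8% of naive cells, 28.7% and 21.3% of ta-non-activated cells and 4.37% and 4.81% of ta-activated cells had no UMI of any of them. Cells with 3 or more receptors made up 5.68%, 4.30%, 5.62%, 15.8% and 28.8% in the same order. The cultured libraries lay apart from the other 3 in both measures, and the week 3 culture, with its higher *Cd28* and *Tnfrsf25*, had the larger share of cells with 3 or more (27.3 to 30.3) than the week 2 culture (14.4 to 17.3).

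**Figure D4:**
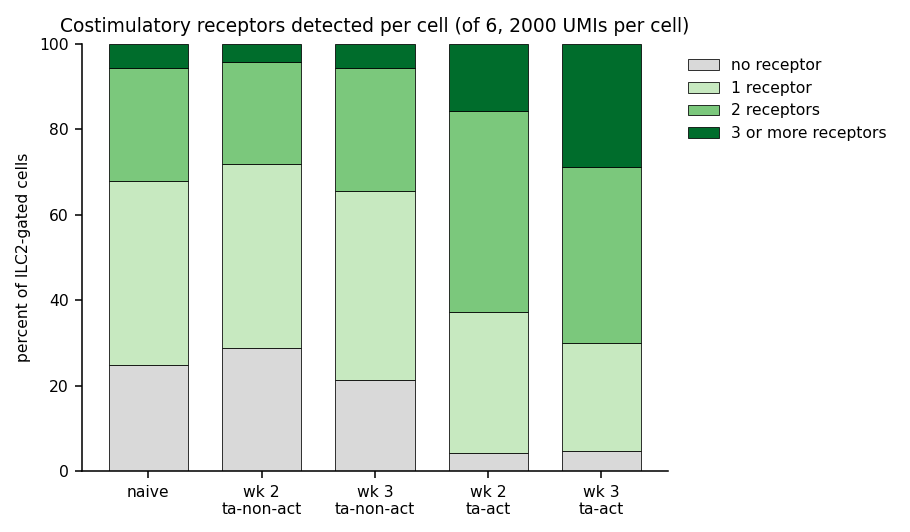
Percent of ILC2-gated cells (y axis) with a UMI of none, 1, 2, or 3 or more of *Icos*, *Cd28*, *Tnfrsf4*, *Tnfrsf9*, *Tnfrsf18* and *Tnfrsf25* in each library, each cell thinned to 2000 UMIs. The dark top segment is 15.8% and 28.8% in the cultured libraries and at most 5.68% in the other 3.

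*Icos* and *Icosl* were found together in fewer naive cells than their shares predict once cells were thinned to 2000 UMIs. In the other 4 libraries the interval of the thinned ratio covered 1. In gated cells thinned to 2000 UMIs, 157 naive cells had both, against 193 expected from the product of the 2 shares, a ratio of 0.81 (0.69 to 0.95), and over all cells the ratio was 0.78 (0.66 to 0.91). In fresh cells 10 and 10 had both, with ratios of 1.18 (0.57 to 2.17) and 0.68 (0.33 to 1.25), and in cultured cells 7 and 44 had both, with ratios of 1.02 (0.41 to 2.10) and 0.99 (0.72 to 1.32). The naive ratio was 1.0 (0.92 to 1.08) without thinning, where 608 cells had both and differences in depth between cells add to co-detection. Of naive *Icos*-positive gated cells, 6.22% had *Icosl* after thinning and 17.2% without.

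*Tnfrsf4* and *Tnfsf4* met in more cultured cells than their shares predict. In gated cells without thinning, 24 cells of the week 2 culture had both against 9.37 expected, a ratio of 2.56 (1.64 to 3.81), and 139 cells of the week 3 culture against 57.3 expected, a ratio of 2.43 (2.04 to 2.87). For week 2 fresh cells the ratio was 1.34 (1.05 to 1.68, 75 cells), and in the naive and week 3 ta-non-activated libraries 1 and 0 cells had both. Cells with more UMIs show more of every gene, and after thinning the week 3 culture kept 7 cells with both, a ratio of 2.46 (0.99 to 5.07), while the week 2 culture kept none against 0.09 expected. Without the 5% of cells with the most UMIs the unthinned ratios were 1.76 (0.84 to 3.24) and 2.02 (1.58 to 2.54). In the week 3 culture the ratio was thus above 1 in each setting, but after thinning its interval covered 1, and in the week 2 culture the interval covered 1 without the high-UMI cells.

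**Figure D5:**
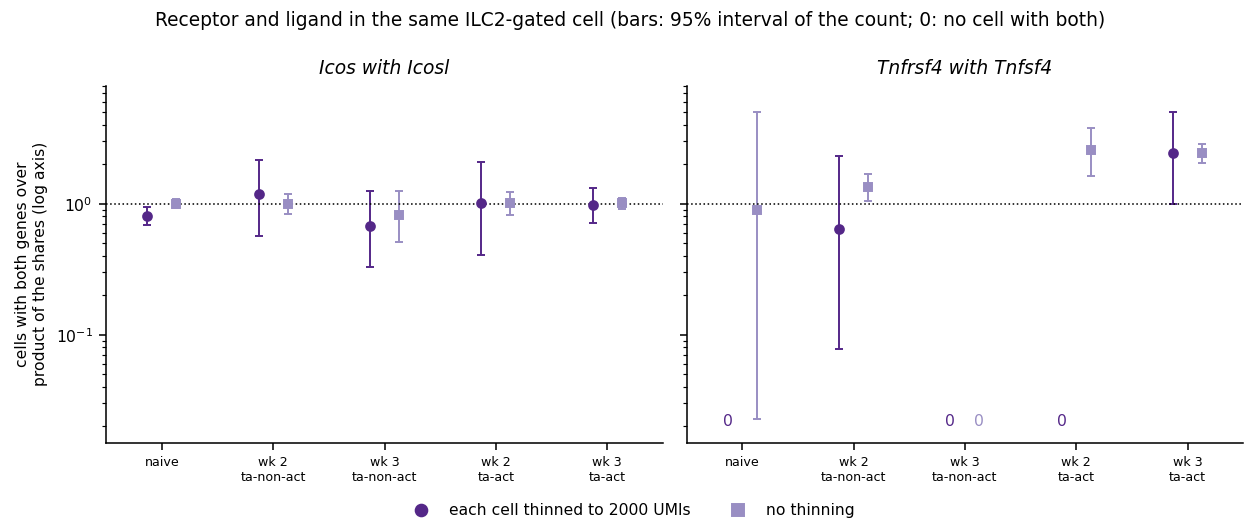
Cells with both genes of a receptor and ligand pair over the number expected from the product of the shares (log axis), per library in the ILC2 gate, thinned to 2000 UMIs (dark circles) and without thinning (light squares), with 95% intervals of the count. A 0 marks a library with no cell that had both, and the dotted line is at 1. *Icos* with *Icosl* lies at or below 1.18 throughout, and *Tnfrsf4* with *Tnfsf4* reaches 2.43 to 2.56 in cultured cells without thinning.

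Among the receptors, *Tnfrsf18* was found with *Tnfrsf4* and with *Tnfrsf9* more often than their shares predict in both cultures. The thinned gated ratio for *Tnfrsf4* was 1.34 (1.04 to 1.70) in the week 2 culture and 1.40 (1.17 to 1.66) in the week 3 culture, against 1.34 (0.71 to 2.29) in naive, 1.36 (0.82 to 2.12) in week 2 fresh and 0 of 2.27 expected cells in week 3 fresh cells. For *Tnfrsf9* it was 1.24 (1.08 to 1.41) in naive cells, 1.19 (1.05 to 1.35) in the week 2 culture and 1.16 (1.03 to 1.31) in the week 3 culture, with intervals that covered 1 in week 2 fresh (1.05, 0.62 to 1.66) and week 3 fresh cells (1.59, 0.73 to 3.01). *Icosl* with *Tnfrsf9* in naive cells gave 0.54 (0.31 to 0.87). Other pairs had an interval above 1 in 1 library each. In naive cells these were *Tnfsf4* with *Tnfrsf9*, *Icos* with *Tnfrsf9*, *Cd28* with *Cd40lg* and *Tnfsf4* with *Cd40lg*. *Icos* with *Cd28* was so in week 3 fresh cells, and *Tnfrsf9* with *Tnfrsf25* in the week 2 culture. In all, 36 pairs of members were examined in each of 5 libraries, over cells of single libraries. With so many intervals some miss 1 by counting error alone, and these ratios are descriptions.

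As CPM, *Tnfrsf18* and *Tnfrsf25* were lower in cycling than in other cells of the week 2 fresh and both cultured libraries, and *Tnfrsf9* in the cultured ones, but per cell most of these were not lower. A gated cell was called cycling when at least 2 of 12 cell-cycle genes (among them *Mki67*, *Top2a* and *Cdk1*) had a UMI after thinning, which was so for 0.525% of naive, 7.63% of week 2 ta-non-activated, 23.5% of week 2 ta-activated and 17.4% of week 3 ta-activated cells. *Tnfrsf9* in cycling cells was 0.35 of the level in other cells in the week 2 culture (84.0 against 242 CPM) and 0.62 in the week 3 culture (68.5 against 110.3 CPM), while in week 2 fresh cells it was 1.22 (0.957 to 1.54). *Tnfrsf25* was at 0.58, 0.58 and 0.59 in the week 2 fresh, week 2 cultured and week 3 cultured cells, and *Tnfrsf18* at 0.59, 0.68 and 0.85. Cycling cells were deeper, with a median of 29314 against 15549.5 UMIs in week 2 fresh, 24565 against 11740.0 in week 2 cultured and 21742 against 11582 in week 3 cultured cells. Per cell, *Tnfrsf18* had 4.09 against 3.84 UMIs, 14.4 against 11.95 and 14.3 against 9.79 in the same order, and *Tnfrsf25* had 2.87 against 2.76, 0.729 against 0.707 and 1.58 against 1.55. *Tnfrsf9* had 2.55 against 4.14 UMIs per cell in the week 2 culture and 1.75 against 1.63 in the week 3 culture, so its per-cell count was lower in cycling cells of week 2 alone.

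*Icos* and *Cd28*, as CPM, did not follow one direction in cycling cells. In week 2 fresh cells *Icos* was 1.44-fold (1.37 to 1.51) and *Cd28* 5.26-fold (3.78 to 7.29) higher in cycling cells, and in the cultures *Icos* was at 0.83 and 0.87. *Cd28* was also 3.31-fold (2.10 to 4.98) higher in the 28 cycling naive cells. The week 3 ta-non-activated gate held fewer than 20 cycling cells and gave no value.

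Cells with *Il13*, the type 2 cytokine that ILC2s secrete, carried more OX40 RNA in 3 of the 5 libraries by the counting interval. This split was chosen after values had been seen. Thinned *Il13*-positive gated cells made up 5.20% of naive, 89.6% and 5.43% of ta-non-activated and 75.8% and 85.1% of ta-activated cells. *Tnfrsf4* in them was 3.25-fold (1.85 to 6.33) the level of other cells in the week 2 ta-non-activated library, 1.52-fold (1.30 to 1.79) in the week 2 culture and 1.69-fold (1.46 to 1.96) in the week 3 culture. In naive cells (2.28, 0.937 to 4.80) and week 3 fresh cells (7.58, 0.686 to 52.9) the ratio was also above 1, but the interval covered 1. These intervals treat UMIs as independent, while the UMIs of *Tnfrsf4* lay in a minority of cells. *Il13*-positive cells were also deeper, with a median of 17045.5 against 10313 UMIs in week 2 fresh cells. In naive cells *Tnfsf4* (3.22-fold, 2.17 to 4.66), *Tnfrsf9* (1.83-fold, 1.54 to 2.17) and *Icos* (1.29-fold, 1.22 to 1.37) were higher in the *Il13*-positive cells, 36 of 80 *Cd40lg* UMIs lay in them, and *Cd28* was at 0.55 (0.33 to 0.86). The direction was not shared by the libraries: in week 2 fresh cells *Icos* was at 0.77 (0.72 to 0.83) and *Tnfsf4* at 0.74 (0.59 to 0.93) of the level in other cells, and *Tnfsf4* was at 0.56 (0.38 to 0.85) in the week 2 culture.

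The partners of the members outside the list were measured beside them. *Tnfsf9*, the ligand of 4-1BB, was higher in cultured cells of both weeks, at 27.9 and 29.9 CPM in the gate against 19.1 and 7.89 CPM in ta-non-activated and 11.4 CPM in naive cells. *Tnfsf15*, which encodes TL1A, the ligand of DR3, was found chiefly in the week 2 ta-non-activated library, with 373 UMIs (11.5 CPM) in the gate, the library with the highest *Tnfrsf25*. It had 0 to 89 UMIs (at most 1.47 CPM) in the other 4. *Tnfsf18*, the ligand of GITR, had 179 UMIs (6.47 CPM) in the naive gate and 0 to 3 in the others. The naive library was counted with another Cell Ranger version, and the part of this in its *Tnfsf18* level was not tested.

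*Ctla4*, the inhibitory receptor that shares CD80 and CD86 with CD28, was the most uneven partner. The gate had 390 UMIs (14.1 CPM) in naive cells, 3 and 14 UMIs in ta-non-activated cells and 1220 and 59 UMIs (23.2 and 0.975 CPM) in ta-activated cells. Culture over fresh was 251 (85.6 to 1218) in week 2 and 0.132 (0.0731 to 0.257) in week 3. *Cd80* was at 2.71 and 3.06 CPM in cultured and at 0.957 and 0 CPM in ta-non-activated cells, while *Cd86* and *Cd40* were at most at 1.48 CPM in each gate. None of the 6 partners tested over all cells, of 7, had an adjusted p under 0.05 by edgeR. Their median log2 difference was 0.18 over all cells, against 0.97 for the 9 members, and 0.86 in the gate (5 tested), against 0.73 for the members, with -0.02 for all genes tested in both.

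Of the other costimulatory pairs, 10 of 10 were tested and none was called by edgeR, with 6 above 0 and 4 below and a median log2 difference of 1.0 over all cells, and 7 above and 3 below with a median of 0.51 in the gate. The 3 with the highest mean level were *Cd48*, *Cd226* and *Cd27*, whose log2 differences were 1.14, -0.19 and -2.49. Of 17 signalling genes 11 lay above 0 and 6 below over all cells with a median of 0.09, and 8 above and 9 below in the gate with a median of -0.29. None was called by edgeR, and DESeq2 over all cells called *Lck* (-4.36, adjusted p = 0.0263), a kinase of T cell receptor signalling. In the gate *Lck* differed by -2.49 (adjusted p = 0.51, edgeR). The part of the Cd3-positive cells of the week 3 fresh library in the all-cell call was not tested. Among the most abundant signalling genes, *Nfkb1* and *Grb2* differed by -0.45 and 0.62, and *Nfkb1* stood at 3310 CPM in the naive library against 127 to 229 CPM in the other 4. The naive library was counted with another Cell Ranger version, and the part of this in its *Nfkb1* level was not tested. Of 12 cell-cycle genes 11 lay above 0 over all cells and 12 in the gate, with medians of 0.86 and 2.24 and no call by edgeR, and DESeq2 over all cells called *Cenpf* (1.67, adjusted p = 0.0407). *Lck* and *Cenpf* were named after their values were seen. The 3 most abundant were *Pclaf* (0.22 over all cells), *Top2a* (1.10) and *Ube2c* (1.28).

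Genes that varied from cell to cell like a member did so weakly, and only those with the highest mean were looked at for each member. Pearson correlations of log counts over thinned gated cells were averaged over the 5 libraries, among 2809 genes with a UMI in at least 5% of cells of each. By the rule of a mean of at least 0.1 and a positive value in all 5, *Icos* was most like *Ikzf3* (mean r = 0.17, 0.06 to 0.35 over libraries), a lymphoid transcription factor, and *Areg* (0.16), the growth factor amphiregulin. *Tnfrsf9* was most like *Hilpda* (0.14) and *Crem* (0.12), and *Tnfrsf18* like *H2-K1* (0.12), *Ltb* (0.12) and *Furin* (0.11). For *Cd40lg* no mean over the 5 libraries could be computed, and the remaining members had no gene that met the rule. The cells of a library share its depth and sort, so these values are descriptions.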

How the data were processed

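The authors deposited 1 matrix of raw UMI counts per library, a count of molecules per gene and cell barcode, aligned to GRCm38. Per the file headers Cell Ranger 6.0.0 made the naive matrix and 3.0.2 the other 4, while the submitters' processing notes list 3.0.2 and Seurat 3. The naive matrix lists 28831 genes and each of the other 4 lists 27726. The aligner settings and gene annotation are not given in the sources used here.

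Barcodes with 200 or more genes of the 27726 common ones and a mitochondrial share under 5% were kept. Counts were summed per library over all cells or over the ILC2 gate and scaled to CPM. Shares were taken after thinning each cell to 2000 UMIs, which left out cells below that depth, and without thinning. Intervals are 95% Poisson, exact conditional or Clopper-Pearson intervals and cover counting error only. The ta-activated group was set against the ta-non-activated group on summed counts with edgeR 4.0.16 (TMM, quasi-likelihood test, Benjamini-Hochberg adjustment over all genes tested), in R 4.3.3. DESeq2 1.42.0, plain totals, other filters, the week as a block and each library left out were alternatives, as were other thinning depths and class limits. The code was checked on simulated data. Positions are from GENCODE M21, which held 27639 of the 27726 gene identifiers (99.7%), and promoters from RefSeq. Python 3.11.15 with numpy 2.4.6, scipy 1.17.1, pandas 2.3.3, Biopython 1.88 and matplotlib 3.10.9 was used.

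All 9 members were named in each library. Of the other lists, the partners were named, along with the 3 genes of highest mean level in each list. A gene of the signalling list and the values of 1 cell class are not reported here. The members and lists were chosen with earlier results of these data known. Labels number the libraries of a group by week, and nothing ties libraries of a week to the same mice. The measure of UMI concentration over cells and the split by *Il13* were chosen after values had been seen.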

Additional observations from a re-analysis of the deposited data

Results flagged for a closer look

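Each value here is the ratio of the cultured to the fresh level within a week, and it is listed because the 2 weeks lay on opposite sides of 1. With 1 library on each side in each week, the difference between weeks was not tested.

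*Tnfsf4* had ratios of 0.113 in week 2 and 31.2 in week 3 over all cells, and of 0.0822 and 7.91 in the ILC2 gate. *Tnfrsf25* had 0.236 and 3.89 over all cells, and 0.236 and 1.02 in the gate. *Icosl* had 0.426 and 1.04 over all cells, while in the gate both weeks lay below 1. Of the partners, *Ctla4* had 264 (90.3 to 1284) and 0.0216 over all cells, and 251 and 0.132 in the gate, with 3 UMIs in the week 2 fresh library. *Cd40* had 1.04 and 0.377 in the gate, on 2 UMIs in the week 3 fresh library. The week 3 fresh library is the one in which 53.1% of cells were Cd3-positive, and the part of these cells in the all-cell ratios was not tested. Groups of 1 and 2 libraries were too small for a check of single outlying libraries.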

How the results depend on the processing

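Of 117 alternative log2 differences of members over all cells, 103 kept direction and side of the threshold, and of 61 in the ILC2 gate 59 did. With DESeq2, 1041 genes were called over all cells and 523 in the gate, and the differences of *Icos* (2.02), *Tnfrsf9* (3.35, gate 2.99), *Tnfrsf18* (1.74) and *Cd40lg* (-5.33) passed the threshold. Leaving out 1 library at a time gave 0 to 1646 genes called, and 0 to 115 in the gate, and the highest counts came without the week 2 fresh library. The lone library of a group was then assumed to vary like the other group. The members' ranges were 1.38 to 3.23 for *Icos*, -1.52 to 0.20 for *Icosl*, -0.46 to 3.90 for *Cd28*, 0.92 to 3.88 for *Tnfrsf4*, -2.39 to 4.28 for *Tnfsf4* (gate -2.93 to 2.06), 2.74 to 4.46 for *Tnfrsf9*, 1.34 to 2.36 for *Tnfrsf18*, -1.47 to 1.47 for *Tnfrsf25* and -6.99 to -2.51 for *Cd40lg*. The sign turned for *Icosl* without the week 2 cultured library, for *Cd28* without the week 3 cultured one, and for *Tnfsf4* and *Tnfrsf25* without the week 2 fresh one. With the week as a replicate block the difference of *Tnfsf4* turned to 0.43 and 164 genes were called in the gate. Libraries of the same week share the time since tumour implantation, and nothing ties them to the same mice. Their deviations from the group means had a correlation of -0.052. With 2 libraries per group, the week 3 deviations mirror those of week 2, so this is 1 value for both weeks. It cannot show whether the week matters. The block, DESeq2, plain totals and left-out libraries within the gate were added after seeing the data. The causes were not tested.

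Of 40 alternative co-detection ratios 36 stayed within the interval of the reported value. *Icos* with *Icosl* over all cells was 0.99 in naive cells without thinning, and in week 3 fresh cells 0.50 when thinned to 1000 UMIs and 0.68 in the gate. *Tnfrsf4* with *Tnfsf4* was 0 in week 2 fresh cells thinned to 1000 UMIs. Shares followed the thinning depth, with 95 of 180 moved. Of the levels 20 of 81 moved, and of the levels in classes of cells 32 of 171. Of the cycling ratios 8 of 35 moved when 3 of 12 cell-cycle genes were required. The week 3 fresh gate, with 599 cells and 1 to 6 UMIs of *Cd40lg*, *Tnfsf4* and *Tnfrsf4*, limits the week 3 ratios of these genes.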

Other observations

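In 124 naive cells with NK genes *Tnfrsf9* stood at 173 CPM, and in 30 such cells of the week 2 culture at 392 CPM, against 52.4 and 186 CPM in the gates. *Tnfsf4* in the latter cells was at 34.7 CPM (24.7 to 47.4), against 2.55 CPM in the gate of that library. *Ctla4* was at 45.9 CPM in the Cd3-positive cells of the naive library and at 55.3 CPM in those of the week 3 ta-non-activated library.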
